A study of Mus musculus with 9 samples.

Results

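The ligands and receptors of the tumour necrosis factor (TNF) superfamilies were followed across 3 cultured mouse knockout lines. They were chosen by name: a probe set was a member when the gene description deposited with the arrays opened with the words for the TNF receptor superfamily or the TNF ligand superfamily. This gave 53 of 45037 probe sets, for 33 genes, with 36 probe sets for 22 receptors and 17 for 11 ligands, and 14 of the genes had more than 1 probe set. RNA was measured on Affymetrix mouse expression arrays, with 3 arrays per line. The cells labelled EBFko (deficient in EBF, described as lymphoid specified) and Pax5ko (deficient in Pax5, described as B lineage specified) had both Flt3 ligand (10 ng/ml) and IL-7 (10 ng/ml) in the medium. Those labelled RAG2ko (deficient in RAG2, described as B lineage committed) had IL-7 alone (10 ng/ml), so line and medium cannot be told apart in a comparison with RAG2ko. The labels name no further agent, strain or age, and no treatment was applied. They leave it unstated whether the 3 samples came from separate cultures or clones, so a p-value here covers the spread among 3 samples, which may be technical.

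Ligands of the TNF superfamily are mostly trimeric proteins held on the cell surface or shed from it, and their receptors fall into groups by what the tail inside the cell binds. Receptors with a death domain recruit adaptors that can start apoptosis, other receptors bind TRAF proteins and activate NF-kB, and decoy receptors bind a ligand without passing on a signal. In the B lineage the family is known for survival signals of mature B cells, which come from BAFF through its receptor, and for costimulation between B and T cells. CD27, another member, is used as a surface marker of lymphoid progenitors and of memory B cells.

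The arrays give 1 signal per probe set, and levels below are its log2 after quantile normalization, compared only within a probe set. The precision is limited by the 3 arrays per line. Between 40.9% and 47.2% of all signals of an array lay below 64, which is 6 on the log2 scale, and levels under 6 are called dim. Correlations between arrays of 1 line were 0.884 to 0.923. The targeted gene did not separate the lines in every case. Ebf1 was bright on the arrays labelled EBFko, at 9.43 or more in each of its 3 probe sets, and where these probes lie relative to the deleted part was not known here, so they check nothing about that label. The same holds for Rag2, which was at 5.96 and 5.60 in RAG2ko replicates 1 and 2 but at 9.10 in replicate 3, above all 3 Pax5ko arrays (7.16 to 7.86). RAG2ko replicate 3 also stood apart in 17 genes of stromal cells, with a mean of 9.34 against 6.002 and 6.62 on the other RAG2ko arrays and 8.40 to 10.38 on the arrays of the other lines. The mean of 14 B lineage genes was 6.402 to 7.46 in EBFko, 9.35 to 9.59 in Pax5ko and 11.89 to 12.66 in RAG2ko, with Pax5 dim on average in EBFko and Pax5ko. The mean of 9 myeloid and dendritic genes was 7.28 to 8.16, 6.96 to 7.67 and 4.89 to 5.42 in the same order, and that of 12 T and NK genes was 5.32 to 5.73, 4.23 to 5.12 and 4.97 to 5.57, with summed signals of 5872 to 7054, 2496 to 2619 and 1605 to 2313. Of these 12 genes, 8, 9 and 8 were dim, Cd3e and Ncr1 in each line, while Lck was bright throughout (means of 12.15, 11.12 and 10.45) and Klrd1 (10.52, 1.94 and 6.56) and Il2rb (8.02, 6.59 and 6.0003) were highest in EBFko. In these bulk samples, fewer cells of a type and less RNA per cell cannot be told apart.

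Of the 33 genes, 11 differed between lines in at least 1 probe set and 22 were called in no comparison. Cd27, Tnfrsf1a, Tnfrsf12a and 1 probe set of Tnfrsf22 were lower in RAG2ko than in both other lines, while Tnfrsf13c, Tnfrsf19, 1 probe set of Tnfrsf1b and Tnfsf8 were higher. For Cd27 the call of RAG2ko below Pax5ko compares dim signals only. It was lost when dim signals were raised to the upper limit of that range. The difference had the other sign in the authors' deposited table of ratios. Tnfsf11 was highest in Pax5ko, and Tnfsf4 and 1 probe set of Tnfrsf21 were higher in RAG2ko than in EBFko. Each probe set was tested with limma in 1 fit of 9 arrays and called at an adjusted p under 0.05 over 40928 probe sets. Of the 53 members, 48 passed the filter of a log2 signal above 4 on at least 3 arrays, and 15 of these were called. The shares of all genes and of all probe sets called in at least 1 comparison were not counted. The 11 genes and 15 probe sets are therefore not set against a background, and shares per comparison are given below. Of the 53, 18 had a mean below 6 in all 3 lines (34.0%, against 39.1% of all probe sets), and 15 reached a mean of 8 in at least 1 line.

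**Figure D1:**
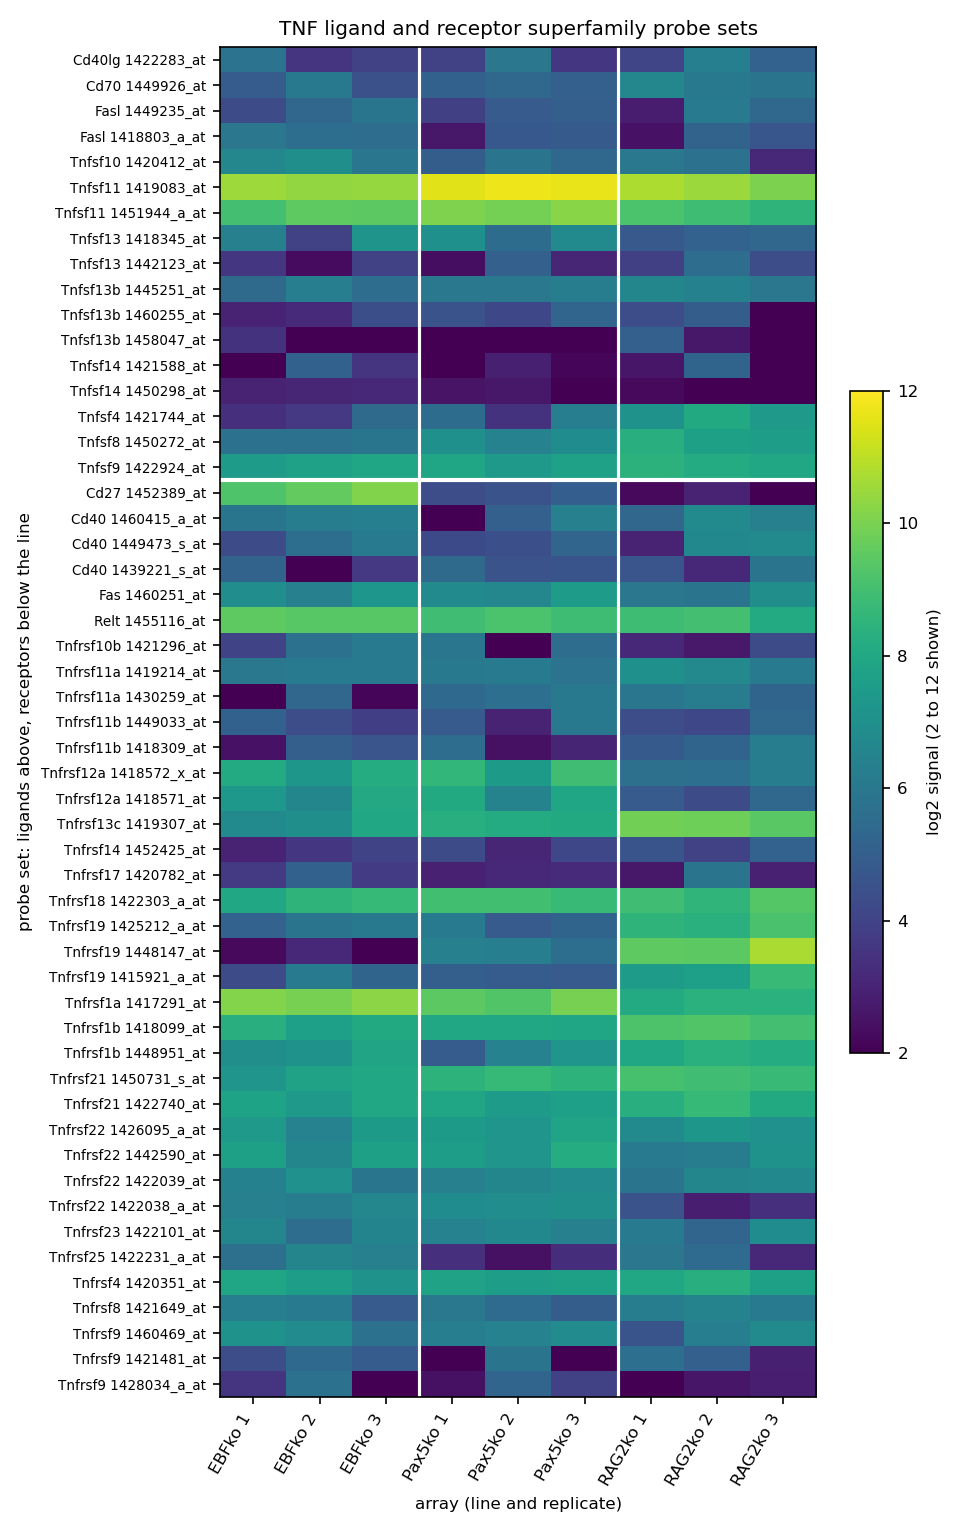
Log2 signal of all 53 member probe sets (rows, 17 ligand probe sets above the white line and 36 receptor probe sets below it) on the 9 arrays (columns, 3 per line), with colours from 2 to 12. Cd27 is bright on the EBFko arrays and dim on the other arrays, Tnfrsf19 is brightest on the RAG2ko arrays, and Tnfsf11 is bright on all 9.

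Between Pax5ko and EBFko, 2 probe sets were higher in Pax5ko (Tnfrsf19 and Tnfsf11) and 1 was lower (Cd27). The 3 calls were 6.25% of the 48 tested, beside 5.22% called among all probe sets (2.64% higher and 2.58% lower), so the share was near the background. The median difference was 0.15 over the members and -0.0053 over all probe sets, and the groups did not overlap in 14 members (29.2%, against 29.0% of all). The count of higher calls fell to 1 without EBFko replicate 1 or any 1 Pax5ko array, and the count of lower calls was 2 without RAG2ko replicate 1 or 3.

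Between RAG2ko and Pax5ko, 6 probe sets of 4 genes were higher in RAG2ko and 7 of 5 genes were lower. These 13 calls were 27.1% of the 48 tested, beside 9.92% called among all probe sets (4.98% higher and 4.94% lower). The median difference was 0.20 against 0.065 over all, and the median size of the difference, whatever its sign, was 0.98 against 0.53. Of the members, 22 (45.8%) had groups that did not overlap, against 32.6% of all.

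Between RAG2ko and EBFko, 8 probe sets of 6 genes were higher in RAG2ko and 5 of 4 genes were lower, again 27.1% of the 48 tested, beside 12.6% called among all probe sets (6.41% higher and 6.23% lower). The median difference was 0.18 against 0.056 over all, and its median size was 0.86 against 0.54. Groups did not overlap in 18 members (37.5%, against 33.4% of all). The count of lower calls was 3 without EBFko replicate 1 or 3 or RAG2ko replicate 1 or 2. Both comparisons with RAG2ko use the same RAG2ko arrays, and 11 probe sets were called in both. The share of all probe sets called in both was not counted. Of the 26 calls they hold together, 25 were kept without RAG2ko replicate 3, and the exception was Tnfsf4 against EBFko (3.45, limma adjusted p = 0.0688).

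**Figure D2:**
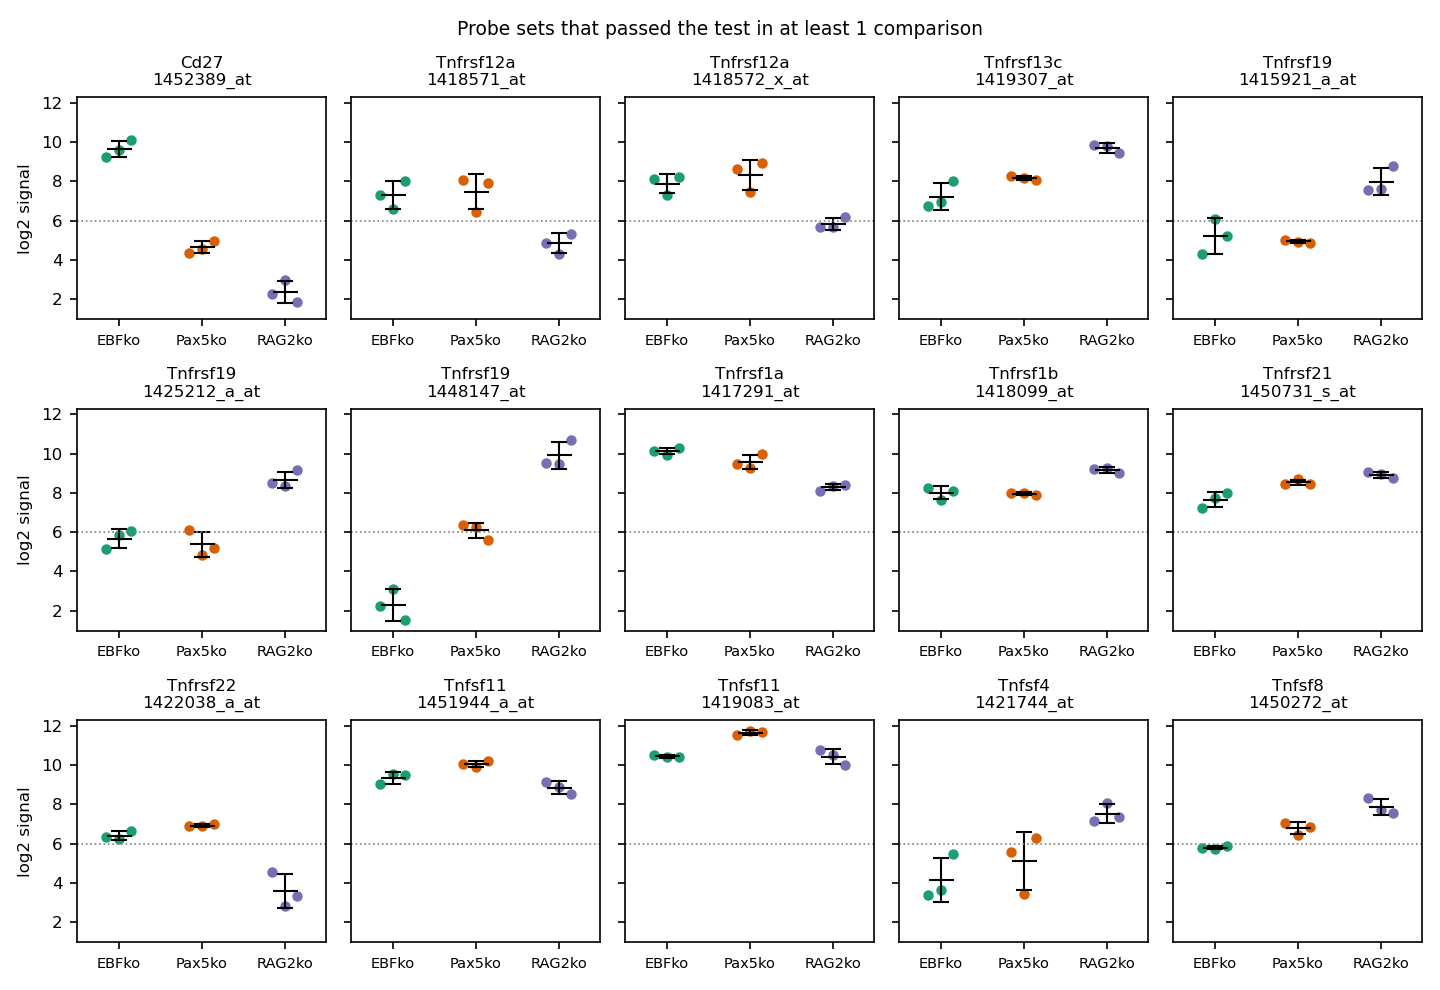
Log2 signal of the 15 called probe sets by array, in EBFko, Pax5ko and RAG2ko (3 points each, with mean ± SD). The dotted line is at 6, below which a signal is dim. Cd27 falls under the line in Pax5ko and RAG2ko, the 3 Tnfrsf19 probe sets are above it in RAG2ko, and the 2 Tnfsf11 probe sets lie above 8 on every array.

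Promoter sequence is shown for 4 called genes whose patterns differ: Cd27, which was high in EBFko, Tnfrsf19 and Tnfrsf13c, which were high in RAG2ko, and Tnfsf11, which was highest in Pax5ko. The bases come from windows of 250 bases before an annotated start in RefSeq (GRCm38.p6), all on the minus strand, and are written 5′ to 3′. Those of Cd27 are the far part of its window and stop short of the start used for it. They are at chr6:125237137-125237277 for Cd27 (the 141 bases of its window outside the annotated gene), chr14:61046856-61047105 for the outer start of Tnfrsf19, chr15:82224381-82224630 for Tnfrsf13c and chr14:78308044-78308293 for Tnfsf11. Capitals mark CCCNNGGG, the core of the palindrome that EBF1 is known to bind.
Cd27: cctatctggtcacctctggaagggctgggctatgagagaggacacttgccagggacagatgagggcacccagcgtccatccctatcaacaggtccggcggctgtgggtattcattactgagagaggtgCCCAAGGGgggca
Tnfrsf19: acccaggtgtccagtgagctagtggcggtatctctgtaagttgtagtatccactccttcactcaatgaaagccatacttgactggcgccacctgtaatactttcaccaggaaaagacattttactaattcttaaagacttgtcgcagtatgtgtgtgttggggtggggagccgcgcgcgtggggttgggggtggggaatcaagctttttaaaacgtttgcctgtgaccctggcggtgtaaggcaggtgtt
Tnfrsf13c: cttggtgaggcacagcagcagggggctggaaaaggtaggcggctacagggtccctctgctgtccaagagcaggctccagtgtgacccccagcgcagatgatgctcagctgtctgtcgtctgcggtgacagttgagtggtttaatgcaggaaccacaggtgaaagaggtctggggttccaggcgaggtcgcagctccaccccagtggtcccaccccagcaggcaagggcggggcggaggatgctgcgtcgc
Tnfsf11: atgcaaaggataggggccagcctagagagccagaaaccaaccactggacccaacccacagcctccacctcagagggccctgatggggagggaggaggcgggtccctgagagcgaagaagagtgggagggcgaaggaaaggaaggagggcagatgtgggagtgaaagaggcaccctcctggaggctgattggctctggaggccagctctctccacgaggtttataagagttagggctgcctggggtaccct

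The core was present in the Cd27 window and not in the other 3. It began 122 bases before the start used for that window, which lies beyond the bases shown. Among the 25 member genes with a promoter in the table, 5 held it within 250 bases (Cd27, Fas, Relt, Tnfrsf14 and Tnfsf13), and of all 32851 promoter windows 11.8% did. The longer EBF1 palindrome was in 0 of the 29 member windows and in 0.779% of all. An E-box, CANNTG, the kind of site bound by E proteins, was in 23 of the 29 member windows and in 66.2% of all. The NF-kB motif was in 3 member windows (Tnfrsf25, Tnfrsf8 and Tnfrsf9) and in 7.25% of all. Both strands were searched, the EBF1 core lies within its longer palindrome, and these matches describe letters and no binding.

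Cd27, a costimulatory receptor that binds CD70 and marks lymphoid progenitors, differed more than any other called receptor between EBFko and Pax5ko. Its log2 signal was 9.25, 9.61 and 10.10 in EBFko, 4.38, 4.58 and 4.98 in Pax5ko, and 2.27, 2.97 and 1.88 in RAG2ko. It was bright on every EBFko array and dim on all the others, and no groups overlapped. Pax5ko was lower than EBFko by -5.01 ± 0.34 on the log2 scale (SE, n = 3 arrays per line, limma adjusted p = 5.21e-04), and by -3.65 when signals below 64 were raised to 64. RAG2ko was lower than EBFko by -7.28 ± 0.34 (limma adjusted p = 3.91e-05), also -3.65 on the raised signals. The call of RAG2ko below Pax5ko (-2.27 ± 0.34, limma adjusted p = 0.00751) compares dim signals only, was 0.00 on the raised signals, and was 0.24 the other way in the authors' deposited table of ratios. Its ligand Cd70 averaged 5.15, 5.17 and 6.17 in EBFko, Pax5ko and RAG2ko and was called in no comparison. The mean of the myeloid and dendritic genes was also lowest in RAG2ko, as given above. The listed genes of other cell types did not share 1 order of lines. Nkg7 (means of 7.37, 6.07 and 4.41), Lck and Il2rb fell in their means from EBFko to Pax5ko to RAG2ko, as Cd27 did. Fcgr3 (means of 12.19, 6.45 and 5.20), Itgam (7.68, 3.66 and 3.96) and Klrd1 were highest in EBFko as Cd27 was. The mean of Mpo was also highest in EBFko (7.54, 6.58 and 5.29), through replicate 3 at 10.19. EBFko replicates 1 and 2 were at 6.29 and 6.13 for Mpo, below every Pax5ko array. Ccr2 (9.75, 11.91 and 3.99) and Cybb (6.86, 11.04 and 3.32) were highest in Pax5ko. So were the means of Csf1r, Cd14 and Elane, but Csf1r and Cd14 overlapped between lines and Elane was dim on average in each line. Lyz2 (6.24, 5.28 and 7.94) was highest in RAG2ko, as was the mean of Cd8a (5.32, 5.26 and 6.07), which overlapped between lines. The part of such cells in the Cd27 differences was not tested.

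Tnfrsf19, also called TROY, a receptor that binds TRAF proteins and is best known from the nervous system and from epithelial stem cells, was higher in RAG2ko in all 3 of its probe sets. Probe set 1448147_at gave 2.24, 3.12 and 1.51 in EBFko, 6.35, 6.29 and 5.63 in Pax5ko, and 9.53, 9.47 and 10.72 in RAG2ko. Probe set 1425212_a_at gave 5.14, 5.85 and 6.04, then 6.09, 4.86 and 5.20, then 8.51, 8.35 and 9.14 in the same order. Probe set 1415921_a_at gave 4.29, 6.10 and 5.23, then 5.02, 4.92 and 4.88, then 7.54, 7.63 and 8.79. Every RAG2ko array lay above every array of the other lines in each probe set, with replicate 3 the highest. The differences between RAG2ko and Pax5ko were 3.82 ± 0.50, 3.28 ± 0.40 and 3.05 ± 0.50 (limma adjusted p = 0.00407, 0.00303 and 0.0102), and 3.69, 2.64 and 1.99 on the raised signals. RAG2ko exceeded EBFko by 7.62 ± 0.50, 2.99 ± 0.40 and 2.78 ± 0.50 (limma adjusted p = 1.62e-04, 0.00354 and 0.0121), or by 3.91, 2.66 and 1.96 on the raised signals. Without RAG2ko replicate 3 the same differences were 3.41, 3.05 and 2.65, and 7.21, 2.76 and 2.38, and all remained called. The probe sets disagreed between Pax5ko and EBFko: 1448147_at was higher in Pax5ko by 3.80 ± 0.50 (limma adjusted p = 0.00682) from a dim level in EBFko, which became 0.21 and was not called on the raised signals, while the others gave -0.29 and -0.27 and were not called.

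The 2 receptors of TNF itself moved in opposite directions. Tnfrsf1a, the widely expressed death domain receptor TNFR1, was at 10.14, 9.95 and 10.27 in EBFko, 9.49, 9.29 and 9.96 in Pax5ko, and 8.10, 8.37 and 8.40 in RAG2ko. Probe set 1418099_at of Tnfrsf1b, the TRAF-binding receptor TNFR2, was at 8.27, 7.63 and 8.09, then 8.01, 7.99 and 7.87, then 9.20, 9.29 and 9.01 in the same order. All RAG2ko arrays were below the others in the former and above them in the latter, and both probe sets stayed above the dim range on every array. Tnfrsf1a was lower in RAG2ko than in Pax5ko by -1.29 ± 0.21 (limma adjusted p = 0.0104) and than in EBFko by -1.83 ± 0.21 (limma adjusted p = 0.00196), 2.44-fold and 3.54-fold. Tnfrsf1b was higher in RAG2ko by 1.21 ± 0.20 and 1.17 ± 0.20 (limma adjusted p = 0.0100 and 0.00947). The other Tnfrsf1b probe set, 1448951_at, gave 2.01 ± 0.56 and 0.89 ± 0.56 and was called in neither (limma adjusted p = 0.0667 and 0.356). Without RAG2ko replicate 3 the Tnfrsf1a differences were -1.34 and -1.88. The mean of the stromal genes on RAG2ko replicates 1 and 2 was also lower, as was that of the myeloid and dendritic genes on all 3 RAG2ko arrays. Single genes departed from these means, such as Lyz2, which was highest in RAG2ko (means of 6.24, 5.28 and 7.94). The part of stromal and myeloid cells in the Tnfrsf1a difference was not tested.

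Among the other death domain receptors, 1 probe set was called. Tnfrsf21, or DR6, has 2 probe sets, of which 1 was called. In 1450731_s_at it was at 7.22, 7.76 and 8.01 in EBFko, 8.46, 8.70 and 8.48 in Pax5ko, and 9.08, 8.94 and 8.77 in RAG2ko, with no overlap between groups. RAG2ko exceeded EBFko there by 1.27 ± 0.23 (limma adjusted p = 0.0119), while Pax5ko against EBFko gave 0.88 and was not called (limma adjusted p = 0.0787). In 1422740_at the means were 7.72, 7.68 and 8.36, called in no comparison. There too RAG2ko was higher without overlap, by 0.64 over EBFko and 0.68 over Pax5ko (limma adjusted p = 0.145 and 0.135). Pax5ko against EBFko gave -0.040 in it. Fas averaged 6.84, 6.98 and 6.26, and Tnfrsf10b, the mouse TRAIL receptor, was dim at 5.32, 4.44 and 3.39. Tnfrsf25, or DR3, was at 5.69, 6.55 and 6.35 in EBFko, 3.35, 2.45 and 3.31 in Pax5ko, and 5.98, 5.52 and 3.11 in RAG2ko, where replicate 3 alone was as low as Pax5ko. Its difference of -3.16 ± 0.72 between Pax5ko and EBFko missed the threshold (limma adjusted p = 0.0537) and was -0.30 on the raised signals. Without RAG2ko replicate 3, which enters the shared estimate of the spread, Tnfrsf25 was called lower in Pax5ko than in EBFko (limma adjusted p = 0.00603) and higher in RAG2ko than in Pax5ko by 2.71 (limma adjusted p = 0.00993). The latter call compares dim signals only. With all arrays, RAG2ko minus Pax5ko was 1.83 and not called (limma adjusted p = 0.167). It was 0.00 on the raised signals and 0.18 in the authors' deposited table of ratios.

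The receptor of BAFF was highest in RAG2ko. Tnfrsf13c, which carries survival signals of mature B cells, was at 6.73, 6.96 and 7.997 in EBFko, 8.30, 8.17 and 8.09 in Pax5ko, and 9.85, 9.81 and 9.43 in RAG2ko. The lines were ordered without overlap, and EBFko replicate 3 came close to Pax5ko. RAG2ko exceeded EBFko by 2.47 ± 0.33 (limma adjusted p = 0.00353), 5.53-fold, and Pax5ko by 1.51 ± 0.33 (limma adjusted p = 0.0297). The latter call was lost without any 1 Pax5ko array or RAG2ko replicate 1 or 2 (1.43 to 1.57, limma adjusted p = 0.0748 to 0.0901) and with centring on the median (1.396, limma adjusted p = 0.0662), and the difference between Pax5ko and EBFko (0.95) was not called. The mean of the 14 B lineage genes rose in the same order of lines, as given above. Blnk (8.97, 5.18 and 13.85), Cd72 (10.63, 5.65 and 9.86), Ebf1, Pax5, Rag1 and Il7r did not follow that order. The relation of the B lineage genes to Tnfrsf13c was not tested. Tnfrsf17, or BCMA, which plasma cells use, was dim and did not pass the filter, with means of 4.19, 3.11 and 3.80. The ligands lay near or in the dim range: Tnfsf13b, or BAFF, reached 5.76, 6.09 and 6.32 in its brightest probe set, and Tnfsf13, or APRIL, 5.83, 6.43 and 5.09, and none was called. Tnfrsf13b, or TACI, whose description does not open with the family's words and which is therefore no member, was bright at 11.00 ± 0.19, 11.72 ± 0.05 and 11.32 ± 0.33 (SD, n = 3), and was not called (limma adjusted p = 0.105 for Pax5ko against EBFko). Without RAG2ko replicate 3, which enters the shared spread, that difference of 0.72 was called (limma adjusted p = 0.0395).

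Tnfrsf12a, or Fn14, the receptor of TWEAK, known from fibroblasts and injured tissue, was lower in RAG2ko in both probe sets. Probe set 1418571_at gave 7.32, 6.58 and 8.04 in EBFko, 8.07, 6.47 and 7.92 in Pax5ko, and 4.88, 4.32 and 5.33 in RAG2ko. Probe set 1418572_x_at gave 8.12, 7.31 and 8.20, then 8.63, 7.45 and 8.93, then 5.68, 5.66 and 6.18. All RAG2ko arrays were below the others, and replicate 2 was the lowest array within EBFko and within Pax5ko. RAG2ko was lower than Pax5ko by -2.64 ± 0.55 and -2.50 ± 0.43 (limma adjusted p = 0.0246 and 0.0121) and than EBFko by -2.47 ± 0.55 and -2.04 ± 0.43 (limma adjusted p = 0.0264 and 0.0220). On the raised signals 1418571_at gave -1.49 and -1.31 and was not called. Against Pax5ko its call was lost without Pax5ko replicate 1 or 3 or RAG2ko replicate 1 or 2 (-2.66 to -2.35, limma adjusted p = 0.0683 to 0.0816). Against EBFko both probe sets lost the call without EBFko replicate 1 or 3 or RAG2ko replicate 1 or 2 (limma adjusted p = 0.0717 to 0.0835 and 0.0687 to 0.0759). The mean of the 17 stromal genes was also lowest on replicate 2 within EBFko (9.85, 8.51 and 10.14) and within Pax5ko (9.71, 8.40 and 10.38). In RAG2ko it was 6.002, 6.62 and 9.34. The summed signal of these genes was 12607 to 49735 in EBFko, 15319 to 54976 in Pax5ko and 1914 to 24583 in RAG2ko. RAG2ko replicate 3 had more stromal signal than EBFko replicate 2 or Pax5ko replicate 2, and less Tnfrsf12a than either in both probe sets. The part of stromal cells in the Tnfrsf12a differences was not tested. Without RAG2ko replicate 3 the differences were -2.89 and -2.67 from Pax5ko and -2.71 and -2.21 from EBFko, all called.

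**Figure D3:**
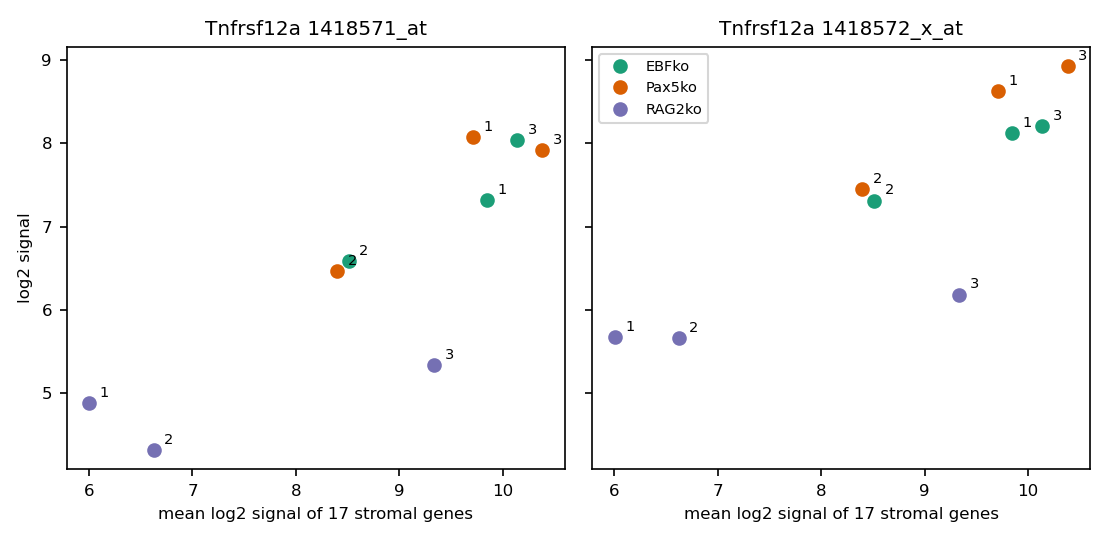
Log2 signal of the 2 Tnfrsf12a probe sets (vertical axes) against the mean log2 signal of 17 stromal genes (horizontal axes), 1 point per array in the colour of its line with its replicate number. RAG2ko replicate 3, at 9.34 on the stromal axis, lies below EBFko and Pax5ko replicates 2, which have less stromal signal.

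Tnfrsf22 and Tnfrsf23 are closely related decoy receptors for TRAIL that adjoin each other on chromosome 7, and whether their probes bind both was not tested. In probe set 1422038_a_at Tnfrsf22 was at 6.35, 6.23 and 6.65 in EBFko, 6.88, 6.89 and 6.99 in Pax5ko, and 4.56, 2.85 and 3.36 in RAG2ko. The RAG2ko arrays were all dim and below the others, by -3.33 ± 0.40 from Pax5ko and -2.82 ± 0.40 from EBFko (limma adjusted p = 0.00301 and 0.00485), but by only -0.92 and -0.41 on the raised signals. Its other 3 probe sets had means of 6.37 to 7.67 in the 3 lines and were called in no comparison. Of these, 1442590_at was lower in RAG2ko than in Pax5ko by -1.185 without overlap (limma adjusted p = 0.134), and the other 2 overlapped in each comparison. Tnfrsf23 averaged 6.22, 6.48 and 6.10 and was not called.

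The costimulatory receptors Tnfrsf18 (GITR) and Tnfrsf4 (OX40), which are neighbours on chromosome 4 and are known from T cells, were measured well above the dim range in all 3 lines. Tnfrsf18 was at 7.97, 8.52 and 8.69 in EBFko, 8.95, 8.99 and 8.79 in Pax5ko, and 8.93, 8.56 and 9.37 in RAG2ko. Tnfrsf4 was at 7.90, 7.56 and 7.14, then 7.76, 7.62 and 7.67, then 7.98, 8.30 and 7.68. Neither was called in any comparison. Among the T and NK genes Cd3e and Cd3g were dim in each line and Lck was bright, as given above, and the part of such cells in these levels was not tested. Relt, a TRAF-binding receptor of blood cells, was above 8 on every array, with 9.50, 9.40 and 9.40 in EBFko, 8.93, 9.18 and 8.90 in Pax5ko, and 8.88, 8.99 and 8.12 in RAG2ko. It was lower in RAG2ko than in EBFko by -0.77, without overlap, but missed the threshold (limma adjusted p = 0.0894). The brightest probe sets of Tnfrsf9, Tnfrsf8 and Cd40 averaged 5.88 to 6.55, 5.48 to 6.25 and 4.45 to 6.14 over the lines, and none was called.

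The ligand Tnfsf11, or RANKL, which drives osteoclast formation and lymph node development, was highest in Pax5ko. Probe set 1419083_at gave 10.52, 10.40 and 10.42 in EBFko, 11.55, 11.76 and 11.67 in Pax5ko, and 10.76, 10.50 and 10.03 in RAG2ko. Probe set 1451944_a_at gave 9.02, 9.53 and 9.49, then 10.07, 9.91 and 10.21, then 9.15, 8.90 and 8.51. Every Pax5ko array was above every other array in both, while EBFko and RAG2ko overlapped. RAG2ko was lower than Pax5ko by -1.23 ± 0.20 and -1.21 ± 0.23 (limma adjusted p = 0.0106 and 0.0177), the second of which was lost without Pax5ko replicate 1 or 3 or RAG2ko replicate 2 (-1.23 to -1.14, limma adjusted p = 0.0518 to 0.0654). Pax5ko exceeded EBFko by 1.22 ± 0.20 in 1419083_at (limma adjusted p = 0.0175), a call lost without any 1 of the 6 EBFko and Pax5ko arrays (1.17 to 1.27, limma adjusted p = 0.0548 to 0.0672), and by 0.72 in 1451944_a_at, which was not called. Between RAG2ko and EBFko the differences were -0.014 and -0.49 and were not called. Of its receptors, Tnfrsf11a, or RANK, averaged 6.09, 5.998 and 6.61 in its brighter probe set and was not called, although without RAG2ko replicate 3 it was called higher in RAG2ko than in Pax5ko and EBFko by 0.86 and 0.78 (limma adjusted p = 0.0310 and 0.0352). The soluble decoy Tnfrsf11b, or osteoprotegerin, was dim in both probe sets in all lines.

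Tnfsf8 and Tnfsf4 were the ligands called higher in RAG2ko, Tnfsf8 against both other lines and Tnfsf4 against EBFko only. Tnfsf8, the ligand of CD30, was at 5.76, 5.74 and 5.89 in EBFko, 7.03, 6.44 and 6.87 in Pax5ko, and 8.32, 7.69 and 7.58 in RAG2ko, with the lines in that order and no overlap. RAG2ko exceeded EBFko by 2.06 ± 0.25 (limma adjusted p = 0.00224), or 1.86 on the raised signals, and Pax5ko by 1.08 ± 0.25 (limma adjusted p = 0.0354). The latter call was kept without RAG2ko replicate 3 and lost without any 1 of the other 8 arrays (0.86 to 1.21, limma adjusted p = 0.0531 to 0.0983), with centring on the median (0.93, limma adjusted p = 0.0827) and in the fit of the 6 arrays compared (limma adjusted p = 0.0886). Tnfsf4, the ligand of OX40, was at 3.37, 3.65 and 5.46 in EBFko, 5.55, 3.45 and 6.29 in Pax5ko, and 7.15, 8.07 and 7.37 in RAG2ko. All RAG2ko arrays were above the others, which were dim but for Pax5ko replicate 3. The difference from EBFko was 3.37 ± 0.82 (limma adjusted p = 0.0379), or 1.53 on the raised signals. That call was lost without EBFko replicate 1 or 2, Pax5ko replicate 1 or any 1 RAG2ko array (2.97 to 3.56, limma adjusted p = 0.0605 to 0.118). Tnfsf4 exceeded Pax5ko by 2.43, which was not called (limma adjusted p = 0.116). On the raised signals that difference was 1.43 and was called (limma adjusted p = 0.00967).

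**Figure D4:**
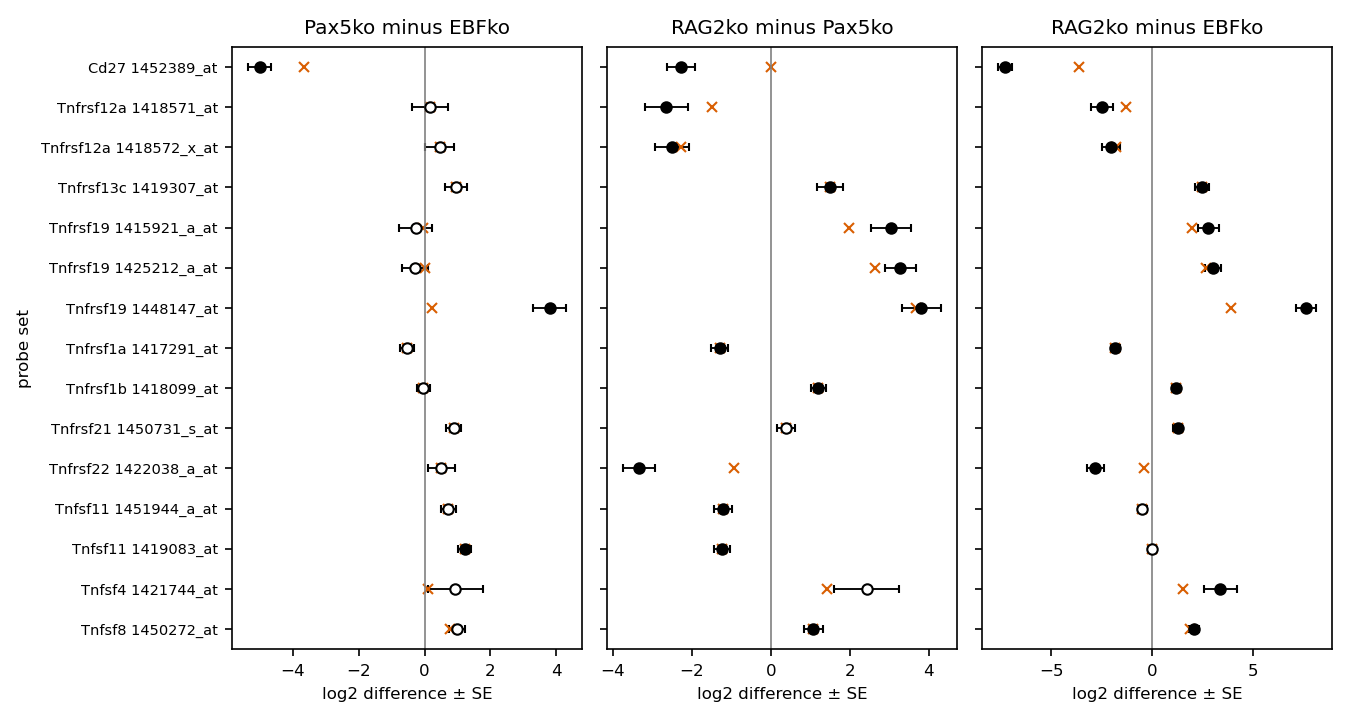
Log2 difference ± SE of the 15 called probe sets in the 3 comparisons (limma, 3 arrays per line). Filled points were called in that comparison and open points were not, and a cross gives the difference after signals below 64 were raised to 64. For Cd27 between RAG2ko and Pax5ko the cross is at 0.00, and for Tnfrsf1a, Tnfrsf1b and Tnfsf11 it lies on the point.

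The other ligands were called in no comparison. Tnfsf9, the ligand of 4-1BB, averaged 7.70, 7.66 and 8.18 in EBFko, Pax5ko and RAG2ko. Tnfsf10, or TRAIL, averaged 6.51, 5.40 and 4.95, with 3.12 on RAG2ko replicate 3, without which RAG2ko minus Pax5ko was 0.47 in place of -0.45. Fasl and Cd40lg, which are known from T cells, were dim in all lines, as was Tnfsf14, which did not pass the filter in either probe set. With Tnfrsf10b, Tnfrsf11b, Tnfrsf14 and Tnfrsf17 this made 7 genes whose probe sets were all dim in each line. In all, 33 tested probe sets were called in no comparison. Of the receptor and ligand pairs, Tnfsf4 and Tnfsf8 differed between lines where their receptors Tnfrsf4 and Tnfrsf8 were not called, and Cd27, Tnfrsf13c and Tnfsf11 differed where Cd70, Tnfsf13b and Tnfrsf11a were not.

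Of 10 further family genes, whose descriptions do not open with the family's words, 9 passed the filter and 1 was called. Each was tested by its brightest probe set, while the shares beside them are over all probe sets. The share called was 0.0% in Pax5ko minus EBFko, beside 5.22% of all probe sets. It was 11.1% in RAG2ko minus Pax5ko and in RAG2ko minus EBFko, beside 9.92% and 12.6%, so near the background. Edaradd, the adaptor of the ectodysplasin receptor, was at 5.28, 5.65 and 5.53 in EBFko, 6.24, 4.75 and 5.31 in Pax5ko, and 7.73, 8.003 and 6.73 in RAG2ko. It was higher in RAG2ko, by 2.05 ± 0.45 over Pax5ko and 2.00 ± 0.45 over EBFko (limma adjusted p = 0.0311 and 0.0285). The first call was lost without any 1 EBFko array, Pax5ko replicate 2 or 3 or RAG2ko replicate 1 or 2 (limma adjusted p = 0.0502 to 0.0933), and the second without any 1 EBFko array, Pax5ko replicate 3 or RAG2ko replicate 1 or 2 (0.0506 to 0.0915). The median difference over the 9 genes was 0.29 between Pax5ko and EBFko, -0.53 between RAG2ko and Pax5ko and 0.32 between RAG2ko and EBFko, against -0.0053, 0.065 and 0.056 over all probe sets.

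Tnf and Lta, which encode TNF and lymphotoxin alpha and adjoin each other on chromosome 17, turned on RAG2ko replicate 3. Lta was at 3.51, 4.61 and 7.68 in EBFko, 10.32, 11.33 and 10.70 in Pax5ko, and 11.19, 11.27 and 6.503 in RAG2ko. Tnf was at 6.16, 7.09 and 7.11, then 8.22, 7.57 and 8.17, then 8.26, 8.90 and 5.21. Both were higher on every Pax5ko array than on every EBFko array, while RAG2ko replicate 3 fell into or below the range of EBFko. With all arrays Lta differed by 5.52 ± 1.499 between Pax5ko and EBFko and by 4.39 ± 1.499 between RAG2ko and EBFko, and was not called (limma adjusted p = 0.0919 and 0.107). Without RAG2ko replicate 3 these differences were 5.52 and 5.96 and both were called (limma adjusted p = 0.0321 and 0.0209), as was Tnf, higher in RAG2ko than in EBFko by 1.79 (limma adjusted p = 0.0308). Ltb, whose product pairs with lymphotoxin alpha at the membrane, was bright at 10.03, 10.23 and 9.51 and was not called.

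Signalling genes that act below the receptors were called in each comparison. Of 43 listed genes (TRAF proteins, adaptors, kinases, NF-kB subunits and their inhibitors), 41 were tested, each by its brightest probe set. The shares beside them are over all probe sets, dim ones included. A share over the brightest probe set of every gene was not counted, so the 2 kinds of share are not fully alike. Between Pax5ko and EBFko 2 were higher and 2 lower, 9.76% of those tested beside 5.22% of all probe sets. Tnfaip3, or A20, which restrains NF-kB, was higher in Pax5ko by 1.52 ± 0.24 and the adaptor Traf3ip2 by 0.68 ± 0.14, while the NF-kB inhibitor Nfkbia was lower by -1.42 ± 0.23 and the subunit Nfkb1 by -0.97 ± 0.16 (limma adjusted p = 0.0131, 0.0371, 0.0163 and 0.0171). Between RAG2ko and Pax5ko 3 were higher and 0 lower, 7.32% beside 9.92%: Nfkbie, another inhibitor, by 0.98 ± 0.17, the kinase Map3k5 by 0.95 ± 0.20 and Traf3ip2 by 0.59 ± 0.14 (limma adjusted p = 0.0123, 0.0261 and 0.0398). Between RAG2ko and EBFko 8 were higher and 2 lower, 24.4% beside 12.6%, led by Map3k5 (1.67 ± 0.20), Traf4 (1.45 ± 0.20) and Traf3ip2 (1.27 ± 0.14), with limma adjusted p = 0.00220, 0.00408 and 0.00150, against Traf5 (-0.81 ± 0.22) and Nfkb1 (-0.66 ± 0.16) at limma adjusted p = 0.0498 and 0.0381. The medians over the list were -0.081, 0.14 and 0.11, near those of all probe sets (-0.0053, 0.065 and 0.056). These counts rest on single arrays: that between Pax5ko and EBFko was 0 without EBFko replicate 1 or Pax5ko replicate 1, 1 without EBFko replicate 2 or Pax5ko replicate 2 or 3, and 8 without RAG2ko replicate 3. That between RAG2ko and Pax5ko was 1 without any 1 Pax5ko array or RAG2ko replicate 2, and that between RAG2ko and EBFko was 5 without RAG2ko replicate 2 and 6 without EBFko replicate 1 or 2 or RAG2ko replicate 1. Nfkbie, Map3k5, Traf3ip2, Traf4 and Rbck1 kept their calls between RAG2ko and EBFko without any 1 array, as did Nfkbie between RAG2ko and Pax5ko.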

How the data were processed

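Total RNA of 9 samples in 3 lines was labelled with biotin and hybridised to 1 array each. The deposited matrix holds 1 linear signal intensity per probe set and array, which the authors scaled to a trimmed mean of 500.0, as the values show. The labels name GCRMA, and how these linear values came about is not given in the sources used here. The authors' deposited tables hold 1 linear ratio per probe set and line, against a reference not stated and without replicates, and were used only as an alternative and for descriptions and accessions. The members and lists were chosen with earlier results of these data known.

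After 64 control probe sets were left out, signals were log2 transformed and quantile normalized. Probe sets above 4 (log2) on 3 or more of the 9 arrays were fitted with limma 3.58.1 (R 4.3.3; lmFit and eBayes, two-sided, Benjamini-Hochberg over 40928 probe sets), on all 9 arrays, and called at an adjusted p under 0.05. The fit was tested on simulated data. Symbols came from RefSeq accessions (13125 probe sets), the description of a probe set so named (4963) or a full name matched by hand (54). Cd27, Tnfrsf21 and Relt were read from member numbers and wording in their descriptions. Promoters came from RefSeq (GRCm38.p6), which held 25 of the 33 genes.

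Genes were named if called, if a mean reached 8 in a line, or from a short list of B lineage receptors and ligands; of other family genes all called ones, and of the signalling list the 3 largest rises and falls of a comparison without overlap. Tnfrsf25, Fas, Tnf, Lta and other genes outside that rule were chosen after their values were seen. Alternatives covered normalization, filter, dim signals raised to 64, eBayes settings, a replicate block, fits of 6 arrays, probe set choice, the ratio tables, and arrays left out.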

Additional observations from a re-analysis of the deposited data

How the results depend on the processing

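Counts of members called higher and lower (Pax5ko minus EBFko 2 and 1, RAG2ko minus Pax5ko 6 and 7, RAG2ko minus EBFko 8 and 5) kept within 1.5 times under the alternatives except as follows. In Pax5ko minus EBFko the higher count was 4 with a filter at 6 and with trend and robust settings, and the lower count was 2 without quantile normalization, with centring on the median, with trend and robust settings, in the fit of 6 arrays and with 1 probe set per gene. The lower count was 4 in RAG2ko minus Pax5ko and 3 in RAG2ko minus EBFko both without probe sets that match several transcripts and with 1 probe set per gene, and the higher count of the latter comparison was 5 without such probe sets, all with fewer probe sets tested. Signalling genes (4, 3 and 10 called) were most open to the settings: 2, 0 and 6 with centring on the median, 9 and 9 in the first 2 comparisons with a filter at 6 and again with raised signals, 8, 10 and 16 with trend and robust settings, 2 and 1 in the first 2 without probe sets that match several transcripts, and 6 in RAG2ko minus EBFko in the fit of 6 arrays. Without replicate 3 of all lines, which leaves 6 arrays, the counts higher and lower were 1 and 1, 2 and 0, and 5 and 2, with 1 and 0 signalling genes in the first 2 comparisons, and 11 of the 29 member calls were kept. The causes were not tested apart from the fewer arrays and probe sets.

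With each array left out in turn, the counts higher and lower were 1 to 3 and 1 to 2, 4 to 8 and 5 to 7, and 7 to 9 and 3 to 5, with 0 to 8, 1 to 4 and 5 to 12 signalling genes, and 21 of the 29 member calls were kept each time. Of 33 uncalled probe sets, 6 were called under some alternative. Same-numbered arrays of different lines had deviations correlated at -0.006 to 0.114, so the numbers were not taken to pair the samples. With the number as a replicate block, 24 of the 29 member calls were kept, and those of Tnfsf4 in RAG2ko minus EBFko, of Tnfsf8, Tnfrsf13c and Tnfsf11 1451944_a_at in RAG2ko minus Pax5ko and of Tnfsf11 1419083_at in Pax5ko minus EBFko were not (limma adjusted p = 0.0541, 0.0518, 0.0752, 0.0584 and 0.0534); the higher count in Pax5ko minus EBFko was 1 and its signalling count was 1. Without quantile normalization 40.4% of all calls in RAG2ko minus EBFko were higher, against 50.7%.

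Among the 15 probe sets called in some comparison, signs turned in 20 values, of which 1 had been called: Cd27 in RAG2ko minus Pax5ko, both dim, was 0.24 in the authors' deposited table. The others were uncalled. Of the 99 differences of the 33 uncalled probe sets, 47 had the other sign under at least 1 alternative. In Pax5ko minus EBFko, the authors' deposited table turned Tnfsf4 (-0.11), Tnfrsf22 1422038_a_at (-0.031), Tnfrsf1b 1418099_at (0.23), Tnfrsf19 1415921_a_at (0.085) and 1425212_a_at (0.12), and raised signals turned the last to 0.017. Leaving out EBFko replicate 2 turned Tnfrsf19 1415921_a_at (0.18) and Tnfrsf12a 1418571_at (-0.19), which was also -0.12 and -0.042 without Pax5ko replicate 1 or 3, with -0.73 and 0.68 at the other ends of their leave-one-out ranges. Tnfrsf1b 1418099_at was 0.098, 0.0069 and 0.0016 without EBFko replicate 1 or 3 or Pax5ko replicate 3 (lowest -0.22), 0.029 with centring on the median and 0.048 without replicate 3 of all lines. Tnfsf11 1419083_at in RAG2ko minus EBFko was 0.097 with centring on the median, 0.022 without EBFko replicate 1, 0.18 without RAG2ko replicate 3 (lowest -0.18) and 0.17 without replicate 3 of all lines. Dim signals limit the 18 members with means below 6 in all lines.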
